A study of Caenorhabditis elegans with 32 samples.

Results

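The clec genes of Caenorhabditis elegans encode proteins with C-type lectin-like domains, and the report describes their transcripts across 2 strains, 4 generations and 2 oxygen labels. Members were the genes whose symbol is clec followed by a number and whose estimated counts summed to at least 100 over the 32 deposited columns. The deposited table of 46904 genes lists 264 such symbols, of which 135 reached that total. The other 129 lay under it, 26 of them with a total of 0. Just inside the limit were clec-37 with 106.33, clec-61 with 107.67 and clec-245 with 109 counts in all. Just outside were clec-157 with 99.67 and clec-25 with 89.67.

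C-type lectin-like domains are extracellular folds, some of which bind sugars on cell or microbial surfaces. The family is greatly expanded in nematodes, and many members are secreted or membrane proteins of the intestine, the epidermis or the germline. Sets of clec genes are induced when worms feed on pathogenic bacteria, and several serve as readouts of the p38 MAP kinase PMK-1 and other innate immune pathways. For most members no function is known.

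Polyadenylated RNA of whole worms was sequenced in 16 groups of 2 libraries, 1 for each combination of strain, generation from P0 to F3 and oxygen label. The strains are wild type, written WT, and a mutant of hrde-1, the gene of a nuclear Argonaute that carries inherited RNA interference in the germline. The allele of the mutant is not given in the labels. In the protocol, L4 larvae were kept for 16 h at 20 °C in 0.1% oxygen and were then moved back to about 20%. Before that, the worms had been raised with ample food for at least 3 generations. Whether the later generations met low oxygen or only their P0 ancestors did is not stated, so in F1 to F3 the word hypoxia is the name of a group. The design sets hypoxia against normoxia in each generation and strain, and hrde-1 against WT in each generation and oxygen label.

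Library totals ran from 9722580 to 16555982 estimated counts, and the correlation of replicates over genes was 0.932 to 0.995 (Pearson's r). Separate cultures are not stated for replicates, and the p-values below then measure the spread between these samples alone, which may be technical. Both F2 WT normoxia columns were left out of the model. In all 46904 genes, 3 times each column was no smaller, within 0.05, than what WT normoxia of F1 and of F3 add up to for that replicate number, as a mean of 3 columns would be. F2 WT normoxia is therefore given as the remainder, 3 times the column minus that sum, which is an inference from the values. The hrde-1 transcript itself lay between 344 and 612 CPM (counts scaled to library size) in the mutants and reached 863 CPM in WT, and as the ranges overlap it is no check of the labels.

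Some members cannot be told from a near copy. The estimated counts of clec-13 and clec-15 were identical in all 32 columns, and their values below are 1 measurement shared by both. Counts of called members below still hold both genes. Values that were not whole numbers, a trace of reads divided between genes, occurred in 18 columns for clec-209, in 12 for clec-49 and in 11 for clec-50. All 135 members matched the Ensembl annotation of build WBcel235, which gives the coordinates below and calls clec-152, clec-154, clec-155 and clec-236 pseudogenes. Of the members, 131 passed the filter on low counts and were tested, and clec-27, clec-37, clec-178 and clec-245 did not.

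The family summed to 2561 to 4511 CPM, between 0.222% and 0.538% of a library's counts. CPM rests on library sizes scaled by factors of 0.799 to 1.395 and the percent does not, so the order of groups can differ. P0 WT means were 3794 CPM in normoxia and 4356 in hypoxia, but 0.523% and 0.486% of counts. WT libraries lay between 3411 and 4511 CPM with a median of 3870, and mutant libraries between 2561 and 3931 CPM with a median of 2999, so the ranges overlap. A pair of members dominated: clec-87 and clec-63 together held at least 43.4% of the family's counts in every library. Levels between members are compared per kilobase of exon. On that scale clec-87 led with a mean of 959 ± 232 CPM per kb (SD over 30 libraries), followed by clec-63 at 616 ± 263 and clec-209 at 250.5 ± 191. Next came clec-50 at 185, clec-88 at 179 and clec-91 at 141 CPM per kb. The ranks 7 to 12 were held by clec-150 at 86.98, clec-83 at 71.05, clec-1 at 68.3, clec-65 at 53.6, clec-48 at 34.2 and clec-84 at 32.4 CPM per kb. The gap from clec-50 to clec-88, and from clec-84 to the next member clec-186 at 31.4, is smaller than their spread over libraries. The median tested member lay at 1.48 CPM per kb.

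**Figure D1:**
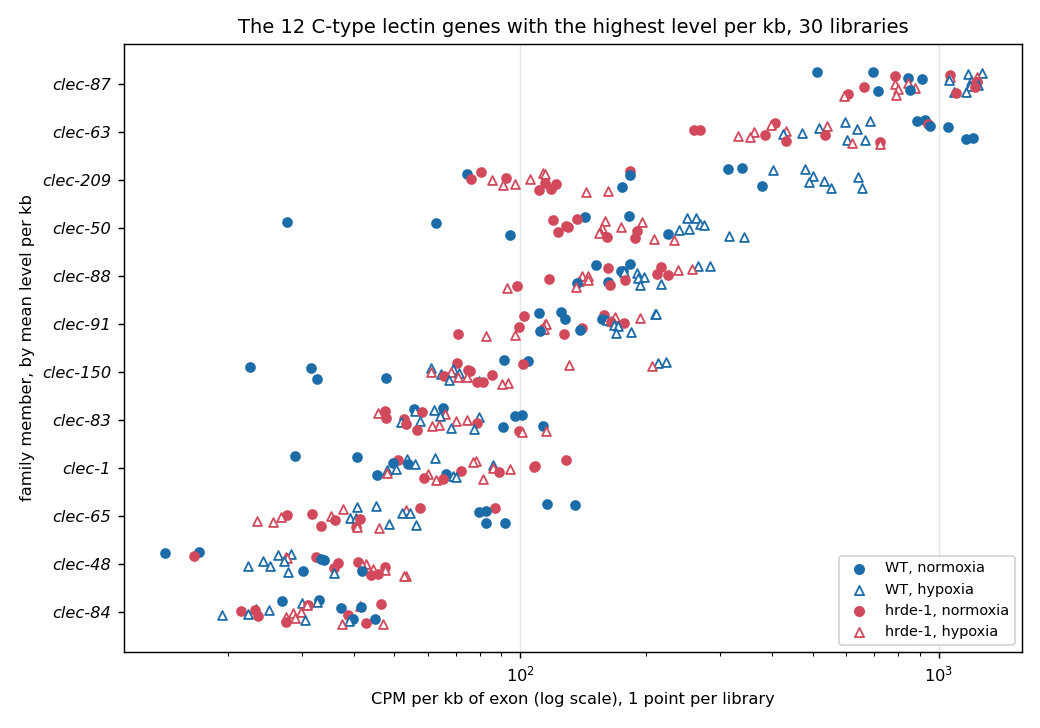
Levels of the 12 members with the highest mean, in CPM per kb of exon on a log axis. Each point is 1 of 30 libraries, with circles for normoxia, triangles for hypoxia, blue for WT and red for hrde-1. clec-87 and clec-63 lie above the others, and the strains overlap in clec-209, whose lowest point is an F1 WT normoxia library at 66.5 CPM before division by length.

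Group means of members differed widely. In members of low count such differences include counting error, and 50 members averaged under 1 CPM. No value over all genes was computed beside them. Of the 135 members, 85 averaged at least 1 CPM over the 30 libraries, 31 at least 10 and 7 at least 100. In 39 members the lowest group was at 0, and in the other 96 the highest group mean was a median of 8.25 times the lowest. Only 1 member differed less than 2-fold between its highest and lowest group. The highest group was P0 WT normoxia for 28 members, F3 hrde-1 hypoxia for 21, P0 hrde-1 normoxia for 19 and F3 WT normoxia for 17.

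**Figure D2:**
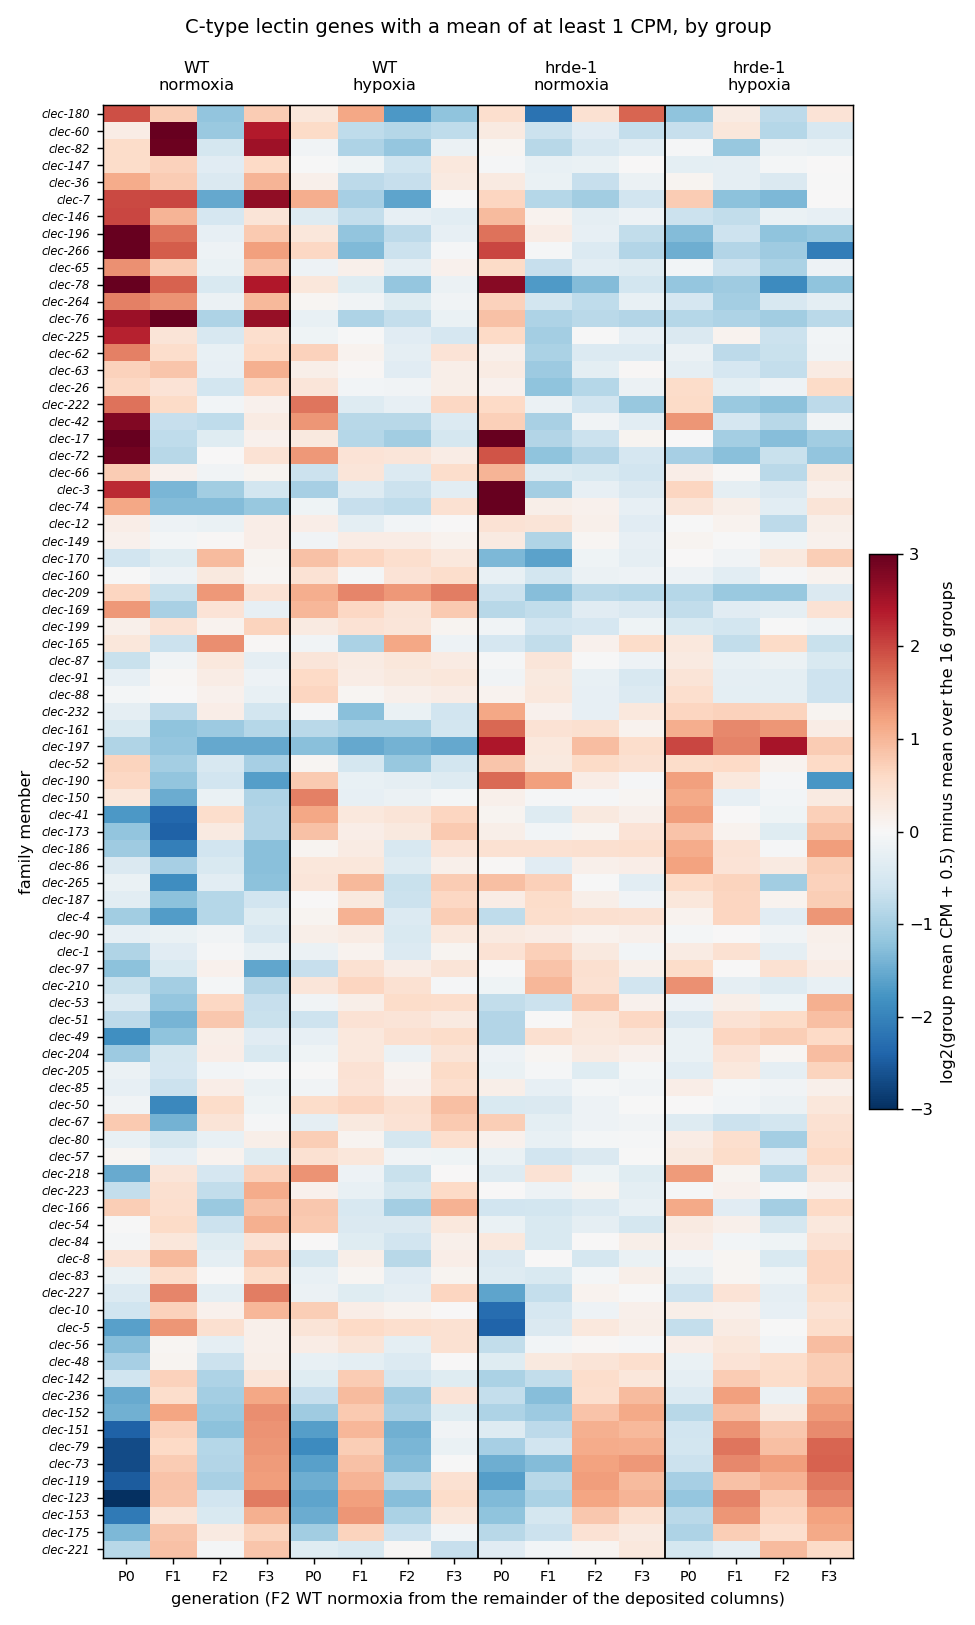
Heat map of the 85 members with a mean of at least 1 CPM across the 16 groups. Colour is log2 of the group mean CPM plus 0.5, less the member's mean over groups. Blocks of members stand high in WT normoxia of P0, F1 or F3 and others in the later generations. F2 WT normoxia is the remainder described in the text.

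**Figure D3:**
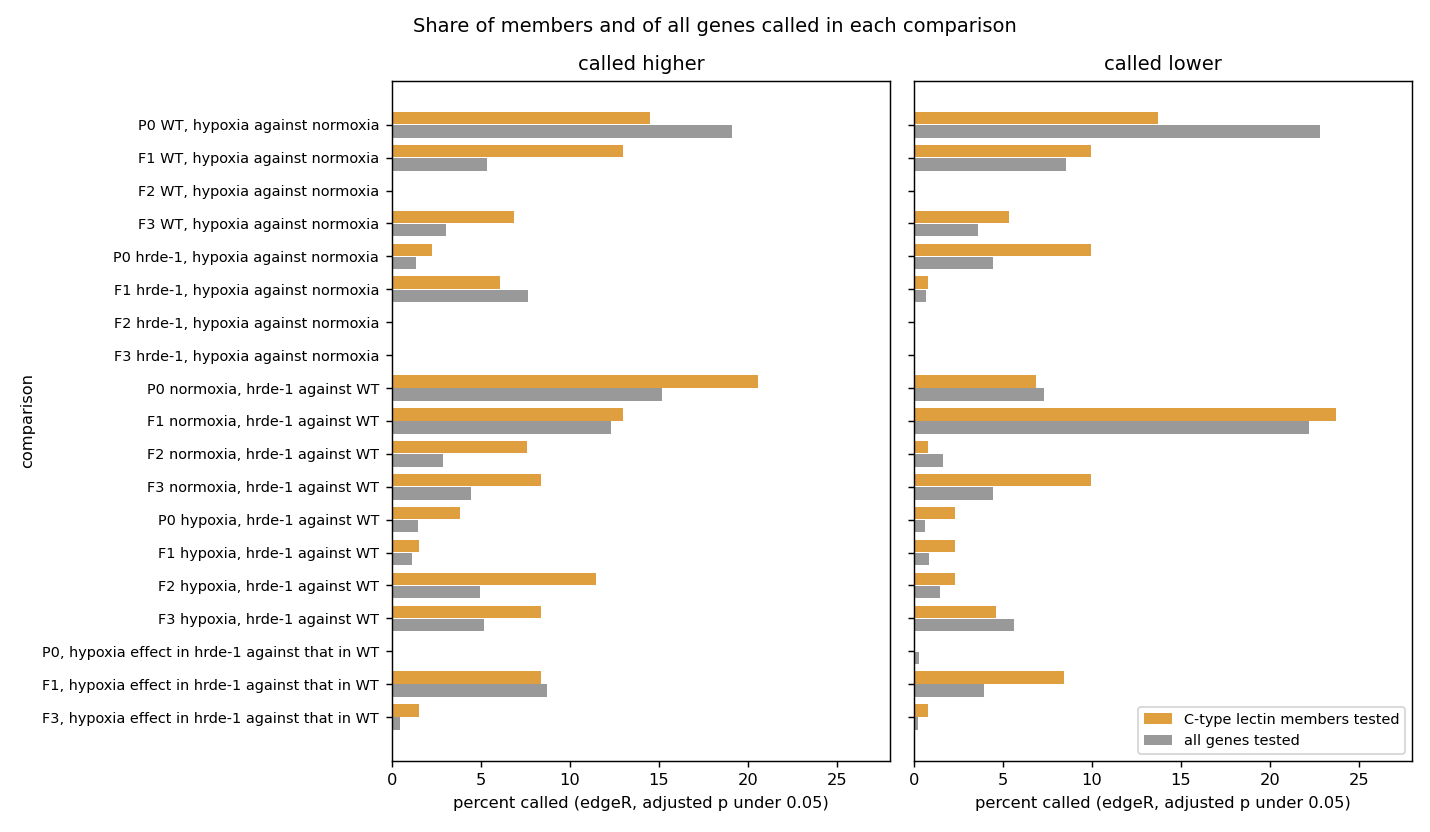
Percent of the 131 tested members and of all tested genes called higher or lower in each of 19 comparisons (quasi-likelihood test, adjusted p under 0.05). For P0 WT hypoxia the members' shares of 14.5% higher and 13.7% lower lie below those of all genes, and for F1 WT hypoxia 13% of members and 5.34% of all genes were higher.

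In P0 worms, the WT groups of normoxia and hypoxia differed in 37 of 131 members, 19 higher and 18 lower in hypoxia. Of all 15536 genes tested, 19.1% were higher and 22.8% lower, so the members' shares of 14.5% and 13.7% lie below the background. The median log2 fold change was 0.00 over members and -0.14 over all genes. In whole worms, fewer cells of a type and less RNA per cell cannot be told apart. Those groups also differed in markers of the germline: the 20 oocyte and eggshell markers summed to 5741 to 8488 CPM in normoxia and 20210 to 21680 in hypoxia, 20 of 20 being higher. Of 25 sperm markers 15 were higher and of 18 neuron markers 15 were lower. Of 21 intestine markers 7 were higher and 6 lower, with sums of 5783 to 6295 CPM in normoxia and 6897 to 7273 in hypoxia. Of 15 hypodermis markers 2 were higher and 4 lower, with sums of 1025 to 1399 CPM in normoxia and 795.3 to 849.9 in hypoxia. The part of these tissues in the members' values was not tested.

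Among the members that rose in P0 WT hypoxia is clec-41, which acts in defence against Bacillus thuringiensis. Normoxia libraries held 21.2 and 21.8 CPM of it and hypoxia libraries 147 and 180.0 CPM, so that both hypoxia libraries exceeded both controls. Its log2 fold change was 2.93 ± 0.55 (SE, adjusted p = 0.000439). The nearby pair clec-49 and clec-50 lies on chromosome V (19748961 to 19751226 and 19752399 to 19755368), and clec-49, a protein that binds Serratia marcescens, rose from 7.31 and 6.43 to 22.9 and 20.8 CPM. Its groups did not overlap, with a change of 1.67 ± 0.23 (adjusted p = 3.73e-05). clec-218 rose from 4.50 and 2.63 to 29.1 and 29.3 CPM, a log2 change of 3.03 ± 0.55 (adjusted p = 0.00036). clec-150 rose from 109 and 124 to 265 and 254 CPM, by 1.16 ± 0.21 (adjusted p = 0.000399). Increases without overlap were also seen in clec-173 (2.19 ± 0.46, adjusted p = 0.00108) and clec-5 (2.19 ± 0.45, adjusted p = 0.000967). These calls held without any 1 of the 4 libraries.

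The most abundant member also rose. clec-87 read 668 and 490.0 CPM in P0 WT normoxia and 1214 and 1123 CPM in hypoxia, without overlap, a log2 change of 1.01 ± 0.25 (adjusted p = 0.00389). A further pair of abundant members, clec-88 at 221.7 and 184 against 345 and 323 CPM and clec-91 at 106 and 94.6 against 179 and 179 CPM, changed by 0.72 ± 0.21 (adjusted p = 0.0115) and 0.83 ± 0.22 (adjusted p = 0.00532). Without the second normoxia library the calls of clec-87, clec-88 and clec-91 were lost (adjusted p = 0.0676, 0.11 and 0.0623). Without that library 21 members were called in this comparison, without the first hypoxia library 22, and in a fit of the compared groups alone 58.

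Members that fell in P0 WT hypoxia include clec-65, which read 135 and 157 CPM in normoxia and 52.5 and 47.4 in hypoxia, a change of -1.55 ± 0.19 (adjusted p = 1.52e-05). clec-266 stood at 254 and 255 CPM against a hypoxia mean of 39.2 ± 2.53 CPM (SD, n = 2), -2.70 ± 0.61 (adjusted p = 0.00199). Both normoxia libraries lay above both hypoxia libraries in each. clec-17 read 27.6 and 19.2 against 0.938 and 1.03 CPM (-4.56 ± 0.80, adjusted p = 0.000311), and clec-3 read 6.63 and 4.64 against 0.144 and 0.159 CPM (-5.13 ± 1.03, adjusted p = 0.00082). clec-78 fell from 52.2 and 89.9 to 6.06 and 6.19 CPM (-3.53 ± 0.77, adjusted p = 0.00139). It is the last gene of a stretch on chromosome IV, from 3922165 to 4014235, that holds 14 clec genes less than 50000 bp apart, 11 of them members. In that stretch clec-72 and clec-76 were called lower as well, at 3.18 and 3.96 and at 0.144 and 0.634 CPM in hypoxia. Their calls were lost without the first hypoxia library (adjusted p = 0.103 and 0.101), that of clec-72 also without the first normoxia or the second hypoxia library (adjusted p = 0.144 and 0.0533). Of the 18 lower members 4 had under 100 counts outside P0 WT normoxia, namely clec-13, clec-15, clec-75 and clec-230. They are members only through the group where they are high, so their differences follow from the choice of members.

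In P0 hrde-1 mutants 16 members were called (12.2%, beside 5.84% of all genes), 3 higher (2.29%, beside 1.38%) and 13 lower in hypoxia (9.92%, beside 4.46%). The 13 include clec-2, described below, and both clec-13 and clec-15, which share 1 measurement. The median was -0.18 over members and -0.02 over all genes. clec-72 read 5.64 and 5.44 CPM in normoxia and 0.379 and 0.255 in hypoxia, a change of -4.08 ± 0.61 (adjusted p = 0.000993). clec-10 stood at 0.403 and 0.947 against 5.46 and 6.55 CPM, 3.16 ± 0.54 (adjusted p = 0.003). In both members the groups lay apart, and both calls held without any 1 library. clec-17 again fell, from 14.9 and 14.2 to 1.14 and 0.340 CPM (-4.26 ± 0.81, adjusted p = 0.00618), and so did clec-3, from 48.98 and 15.9 to 1.14 and 1.87 CPM (-4.43 ± 0.83, adjusted p = 0.00547). clec-2, the neighbour of clec-3 on chromosome II, had 148 of its 154 counts in P0 hrde-1 normoxia and is a member only through that group, so its absence from hypoxia, at 0 counts, is a description. The calls of clec-17 and clec-3 were lost without the first hypoxia library (adjusted p = 0.0587 and 0.114) or the second (0.101 and 0.0665). Fitted on these groups alone no member was called, with adjusted p of 0.115 for clec-72 and clec-17, 0.12 for clec-3 and 0.144 for clec-10. Without the second normoxia library 8 members were called, and without the first or second hypoxia library 3 or 2. The test of whether the hypoxia effect of P0 differs between strains called no member in edgeR, while 12 had an unadjusted p under 0.05 and DESeq2 called 3. In all genes it called 0.0386% higher and 0.29% lower. Without the second hrde-1 normoxia library it called 8 members.

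In F1 WT, 17 of 131 members (13%) were higher and 13 (9.92%) lower in hypoxia, beside 5.34% and 8.54% of all genes, and the medians were -0.02 over members and -0.03 over all genes. Of 18 neuron markers 5 were lower and 1 higher, and of 21 intestine markers 5 were higher and 2 lower. Neuron markers summed to 620.9 to 740 CPM in normoxia and 399.4 to 402.2 CPM in hypoxia, and intestine markers to 6189 to 8371 and 8009 to 8688 CPM. The sums of hypodermis markers (1105 to 1184 against 1895 to 2006 CPM) and of oocyte and eggshell markers (12830 to 14820 against 18550 to 20220 CPM) also lay apart, with 1 gene of each list higher, and the part of these tissues in the members' values was not tested. clec-50 read 29.1 and 66.0 CPM in normoxia, against 282 and 288 in F1 WT hypoxia and 125 to 359 in the 26 fitted libraries outside WT normoxia of F1 and F3. Its log2 change of 2.58 ± 0.33 (adjusted p = 3.08e-05) held without any 1 library. clec-209 (chromosome V, 2351676 to 2352932) stood at 66.5 and 162 against 446 and 570.0 CPM, 2.15 ± 0.36 (adjusted p = 0.000484), again with the groups apart.

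The chromosome IV neighbours clec-186 and clec-187 (within 12866109 to 12871495) both rose in F1 WT hypoxia. clec-186 read 6.90 and 7.62 against 32.7 and 41.3 CPM (2.35 ± 0.46, adjusted p = 0.00194), and clec-187 3.05 and 3.27 against 10.4 and 9.88 CPM (1.68 ± 0.34, adjusted p = 0.00245). clec-49 rose from 8.51 and 13.3 to 32.7 and 32.1 CPM (1.57 ± 0.23, adjusted p = 0.000104). clec-51 rose from 5.55 and 4.98 to 18.9 and 21.4 CPM (1.93 ± 0.25, adjusted p = 4.06e-05), and clec-173 from 1.61 and 1.24 to 9.71 and 13.3 CPM (3.01 ± 0.51, adjusted p = 0.000543). clec-150 rose from 26.96 and 37.7 to 72.9 and 82.2 CPM (1.26 ± 0.22, adjusted p = 0.00063). In none of these did the groups overlap, and each call held without any 1 library.

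A further 4 members with a known role were called higher in F1 WT hypoxia. clec-4, used as an immune readout, read 0.896 and 0.856 CPM in normoxia and 7.77 and 9.45 in hypoxia (3.28 ± 0.80, adjusted p = 0.00858). clec-67, a target of the PMK-1 pathway, read 4.48 and 10.9 against 26.8 and 25.4 CPM (1.76 ± 0.47, adjusted p = 0.0155), and clec-85, another such target, 16.1 and 17.3 against 34.8 and 34.9 CPM (1.06 ± 0.28, adjusted p = 0.0134). clec-41 read 8.06 and 19.3 against 98.03 and 81.6 CPM (2.71 ± 0.55, adjusted p = 0.00249). All 4 members had both hypoxia libraries above both normoxia libraries. Without the first normoxia library all 4 calls were lost (adjusted p = 0.092 for clec-4, 0.233 for clec-67, 0.138 for clec-85 and 0.0735 for clec-41). Without the second hypoxia library clec-4, clec-67 and clec-85 were lost (0.0519, 0.071 and 0.0833), without the first clec-67 and clec-85 (0.0698 and 0.0675), and without the second normoxia library clec-4 and clec-85 (0.0675 and 0.0655).

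Other members stood high in F1 WT normoxia and low in F1 WT hypoxia. clec-70 (chromosome IV, 3932708 to 3936307) read 13.4 and 7.23 CPM in that group and at most 0.774 CPM in the other 28 fitted libraries. As 243 of its 287 counts lay in F1 WT normoxia, it is a member only through that group and its difference is a description, with no test. clec-82 read 13.6 and 12.2 CPM in normoxia and 0.555 and 0.258 CPM in hypoxia, a change of -4.97 ± 0.59 (adjusted p = 1.34e-05). clec-7 read 10.3 and 6.15 against 0.832 and 0.344 CPM (-3.79 ± 0.66, adjusted p = 0.000671), and clec-266 92.3 and 88.99 against 8.88 and 10.7 CPM (-3.21 ± 0.65, adjusted p = 0.00227). The groups of clec-82, clec-7 and clec-266 lay apart, and the calls held without any 1 library. clec-60, an intestinal gene induced by Staphylococcus aureus, read 12.99 and 9.18 against 0.0925 and 0.172 CPM, a ratio of 81.9 (counting interval 27.7 to 399.9, adjusted p = 0.00389). clec-76 read 12.3 and 4.98 against 0.0925 and 0 CPM, a ratio of 188 (33.3 to 7456, adjusted p = 0.00216). Without the second hypoxia library the calls of clec-60 and clec-76 were lost (adjusted p = 0.0579 and 0.0508), and without the first that of clec-60 (0.0566).

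The count of members called in F1 WT fell from 30 to 15 without the first normoxia library, 19 without the first hypoxia library and 14 without the second, and was 46 when the compared groups were fitted alone.

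**Figure D4:**
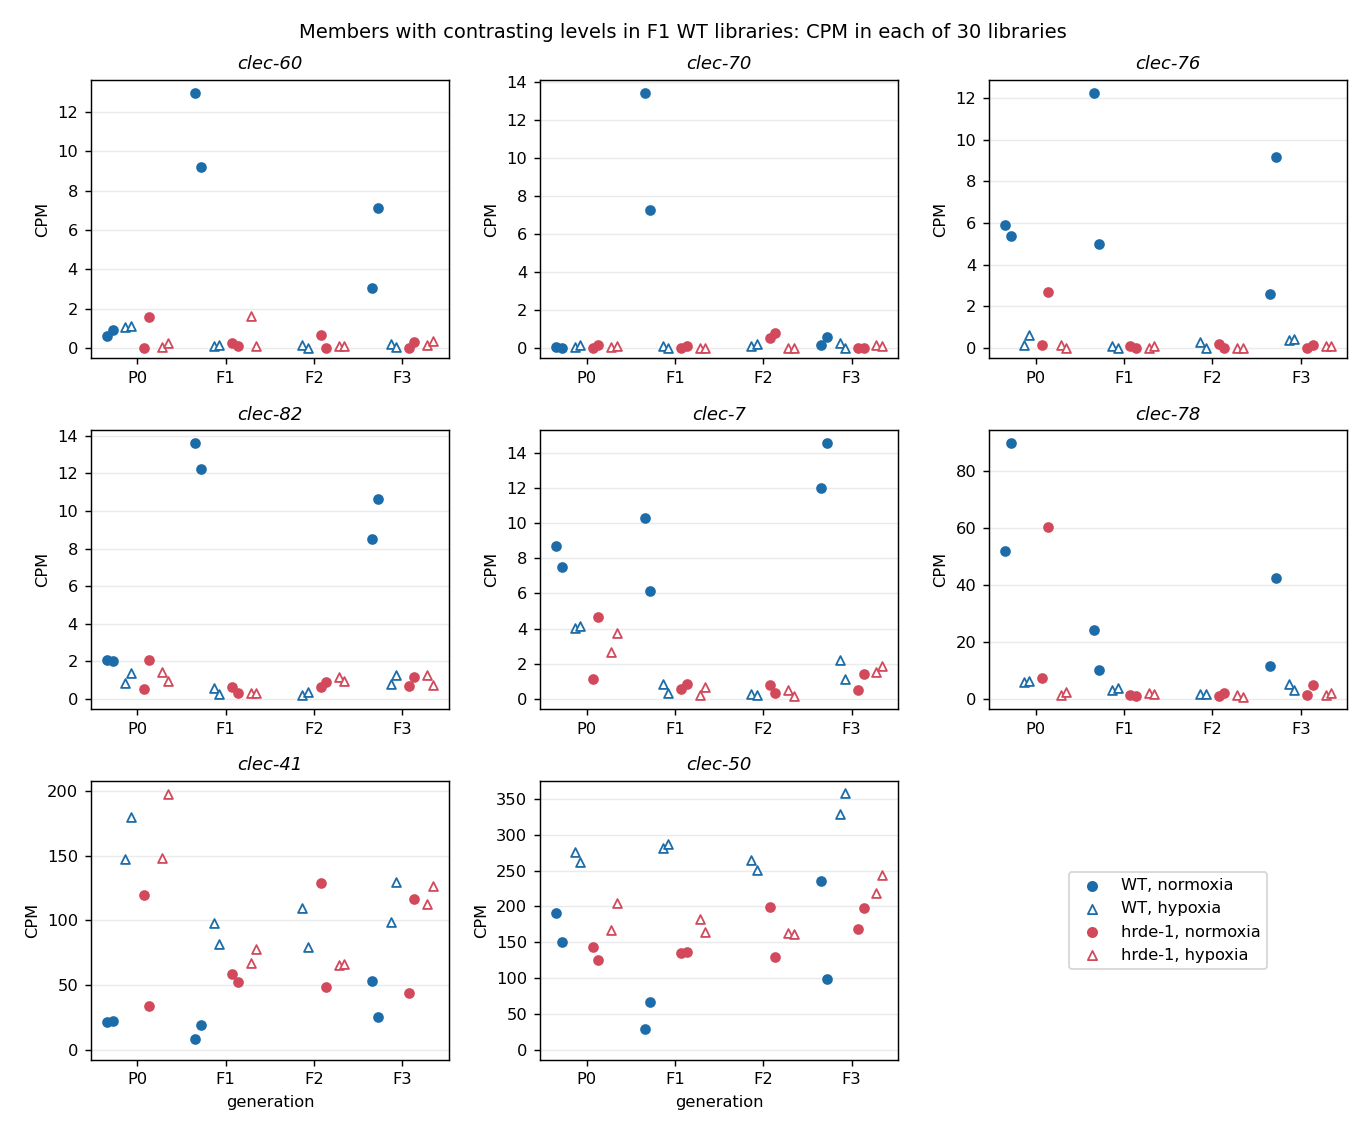
CPM per library for clec-60, clec-70, clec-76, clec-82, clec-7, clec-78, clec-41 and clec-50 by generation, in blue for WT and red for hrde-1, with filled circles for normoxia and open triangles for hypoxia. In F1 the WT normoxia points of clec-60, clec-70, clec-76, clec-82 and clec-7 lie above all others, and those of clec-41 and clec-50 below.

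In F2 WT no member was called by edgeR between hypoxia and the remainder taken for normoxia, as was no gene at all (0%). 1 member had an unadjusted p under 0.05, DESeq2 called 0, and with the columns as deposited 14 were called. clec-50 read 291 and 247 CPM in the remainder and 265 and 251 in hypoxia, and clec-82 read 0.732 and 0.671 against 0.178 and 0.379 CPM. In F3 WT 16 members were called (12.2%, beside 6.62% of all genes), 9 higher (6.87%, beside 3.05%) and 7 lower (5.34%, beside 3.57%). Their median was -0.33, that of all genes -0.14. clec-82 read 8.52 and 10.7 CPM in normoxia and 0.797 and 1.25 in hypoxia, without overlap (-3.23 ± 0.51, adjusted p = 0.000884), a call that held without any 1 library. clec-7 read 12.01 and 14.6 against 2.21 and 1.10 CPM (-2.99 ± 0.59, adjusted p = 0.00477), lost without the second normoxia or second hypoxia library (adjusted p = 0.0624 and 0.105). clec-60 read 3.07 and 7.13 against 0.184 and 0.0735 CPM (-5.17 ± 1.30, adjusted p = 0.0222), lost without the second normoxia, first hypoxia or second hypoxia library (0.217, 0.134 and 0.18). clec-70 read 0.140 and 0.558 against 0.245 and 0 CPM in F3 and was not called. Called members numbered 1 without the second normoxia library, 3 without the first and 2 without the second hypoxia library, and 33 in the compared groups alone.

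F1 hrde-1 mutants differed between hypoxia and normoxia in 9 members, 8 higher (6.11%) and 1 lower (0.763%), beside 7.67% and 0.676% of all genes. The median was 0.42 over members and 0.05 over all genes. clec-123 read 2.75 and 3.80 CPM in normoxia and 21.99 and 17.99 in hypoxia (2.61 ± 0.52, adjusted p = 0.0065), and clec-73 read 2.92 and 2.72 against 23.4 and 19.7 CPM (2.93 ± 0.64, adjusted p = 0.00882). Both were higher without overlap. The calls of clec-123 and clec-73 were lost without the first normoxia library (adjusted p = 0.119 and 0.12) or the second (0.0693 and 0.103). Called members numbered 0 without either normoxia library, 2 without either hypoxia library, 38 in the compared groups alone and 14 in DESeq2. Of the 25 sperm markers 20 were higher in the same comparison, with mean sums of 190.5 CPM in normoxia and 767 CPM in hypoxia. Muscle markers were higher in 12 of 15 (7894 to 7913 against 14100 to 15970 CPM) and hypodermis markers in 7 of 15 (799.9 to 838.1 against 1870 to 2043 CPM). The part of these tissues in the members' values was not tested. In F2 and F3 hrde-1 edgeR and DESeq2 called no member between hypoxia and normoxia. Unadjusted p was under 0.05 for 13 and 12 members, and edgeR called 0% of all genes in F2 and 0.0129% in F3 (0.00644% in each direction). Without the second F3 hrde-1 normoxia library 22 members were called in F3.

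Whether the hypoxia effect differs between strains was tested as an interaction. In F1, 22 members were called, 11 with a more positive effect in hrde-1 (8.4%) and 11 with a more negative one (8.4%), beside 8.72% and 3.92% of all genes. Among the more positive, clec-60 and clec-92 had under 100 counts in hrde-1 and in WT, respectively. Each is a member only through the other strain, so their differences are descriptions. The median difference was 0.99 over members and 0.27 over all genes. Tissue markers differed in the same test: 12 of 25 sperm, 6 of 15 muscle and 6 of 18 neuron markers were more positive and 0 of these more negative. More positive and more negative were 2 and 3 of 21 intestine, 0 and 1 of 15 hypodermis and 0 and 2 of 20 oocyte and eggshell markers. The part of these tissues in the members' values was not tested. For clec-50 the hypoxia effect was 2.58 in WT and 0.36 in hrde-1, whose libraries read 135 and 136 CPM in normoxia and 182 and 165 in hypoxia. Its difference of -2.22 ± 0.44 (adjusted p = 0.00503) held without any 1 of the 8 libraries. The same held for clec-150, which in hrde-1 read 89.4 and 90.4 against 72.9 and 81.1 CPM (difference -1.48 ± 0.30, adjusted p = 0.00625). In both, WT normoxia lay below the other 3 groups. For clec-50 WT hypoxia, at a mean of 285 CPM, also lay above both mutant groups. clec-49 differed by -1.39 ± 0.31 (adjusted p = 0.00987, or 0.0678 without the first WT normoxia library). clec-82 differed by 4.27 ± 0.98 (adjusted p = 0.012), with 0.620 and 0.326 CPM in hrde-1 normoxia and 0.305 and 0.283 in hypoxia. That call was lost without the second WT hypoxia library (adjusted p = 0.0556) or either hrde-1 hypoxia library (0.0585 and 0.0505). Without 1 of the 8 libraries 3 to 12 members were called: 5 and 12 without the first and second WT normoxia library, 8 and 3 without those of WT hypoxia, 8 and 6 of hrde-1 normoxia, and 5 and 6 of hrde-1 hypoxia. The compared groups alone gave 50.

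In F3 the interaction called 3 members, 2 more positive and 1 more negative (1.53% and 0.763%, beside 0.457% and 0.2% of all genes). clec-82 read 0.656 and 1.14 CPM in hrde-1 normoxia and 1.25 and 0.710 in hypoxia, against the fall in WT given above, a difference of 3.34 ± 0.75 (adjusted p = 0.0436). clec-7 read 0.511 and 1.39 against 1.52 and 1.86 CPM in hrde-1 (difference 3.79 ± 0.86, adjusted p = 0.0457). clec-190 read 5.54 and 3.17 against 0.986 and 0.976 CPM in hrde-1 and 1.26 and 0.929 against 4.84 and 1.84 CPM in WT (difference -3.75 ± 0.80, adjusted p = 0.0329). In clec-82 and clec-7 WT normoxia alone is high, while the effect of clec-190 was called in neither strain alone, at a log2 change of 1.62 in WT and -2.14 in hrde-1. No call of the 3 remained without the first or second WT normoxia, the first WT hypoxia, the first hrde-1 normoxia or either hrde-1 hypoxia library. Without the second WT hypoxia library 1 was called, without the second hrde-1 normoxia library 34, and none in the compared groups alone, where the adjusted p were 0.314 for clec-82, 0.295 for clec-7 and 0.317 for clec-190.

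Between strains, several members that were near 0 in WT were present in the mutants. clec-197 (chromosome IV, 17345553 to 17346699) had 18 counts over the 14 WT libraries, none above 0.450 CPM, and 722 over the 16 mutant libraries, none below 0.689 CPM. All mutant libraries therefore lay above all WT libraries. With 18 WT counts it is a member only through the mutants and had to differ, so its values are given with no test. In P0 normoxia it read 5.24 and 9.31 CPM in hrde-1 and 0.450 and 0.112 in WT, and in F2 hypoxia 3.95 and 11.2 against 0 and 0.0948 CPM. In F1 hypoxia the mutants read 2.14 and 4.99 CPM and WT was at 0. The mutant level itself varied more than 10-fold between libraries, from 0.689 to 11.2 CPM.

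Other members under 100 counts in WT, given with no test for the same reason, read similarly. clec-208 had 19 counts in WT and 204 in hrde-1, also with all mutant libraries above all WT libraries. Of all genes tested 0.92% showed such a separation, a share to which the count limit of the family does not apply. Its neighbour clec-207, in the same stretch of chromosome V from 2096072 to 2099158, had 4 and 211. clec-92 had 10 and 223. clec-219 had 9 and 304, and clec-138 had 2 and 212. In F2 hypoxia clec-219 was at 1.14 and 4.98 CPM in hrde-1 and at 0 in WT, and in P0 normoxia clec-207 was at 1.34 and 1.97 CPM against 0. clec-219 lies beside clec-218 on chromosome V (8307942 to 8322867), and clec-218 was called between strains in none of the 8 comparisons, at 2.63 to 29.3 CPM in WT and 3.43 to 31.6 CPM in the mutants.

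In all, 15 members (11.5%) were called higher in hrde-1 in at least 3 of 8 comparisons, beside 3.73% of all genes. Of these 15, 8 had under 100 counts in WT and entered the family only through the mutant libraries, so that they had to differ and the share supports nothing. The others had at least 100 counts in both strains. They were clec-48, higher in 4 comparisons, and clec-49, clec-73, clec-79, clec-97, clec-123 and clec-186, higher in 3 each. In all of them the libraries of the strains overlap, and clec-73 and clec-123 were also called lower in 1 comparison each. A list of 12 male marker genes, chosen after the data were seen, summed higher in the mutants. Its sum was 3.02 to 7.68 CPM in WT and 10.2 to 19.4 CPM in the mutants. Of its 12 medians 10 were higher in the mutants, and no share over all genes was computed beside them. Most of the sum was plg-1, at 0.978 to 4.09 CPM with a median of 2.11 in WT and at 5.44 to 11.5 CPM with a median of 8.63 in the mutants. The list was not uniform: cwp-3 had 0 counts in WT and 3 in the mutants, with a median of 0 in both, and cwp-5 had a median of 0.34 CPM in WT and 0.195 in the mutants. The counts of cwp-4 (128 and 101), cwp-5 (78 and 68) and cil-7 (65 and 43) were larger over the WT libraries. Their part in the members' values was not tested.

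**Figure D5:**
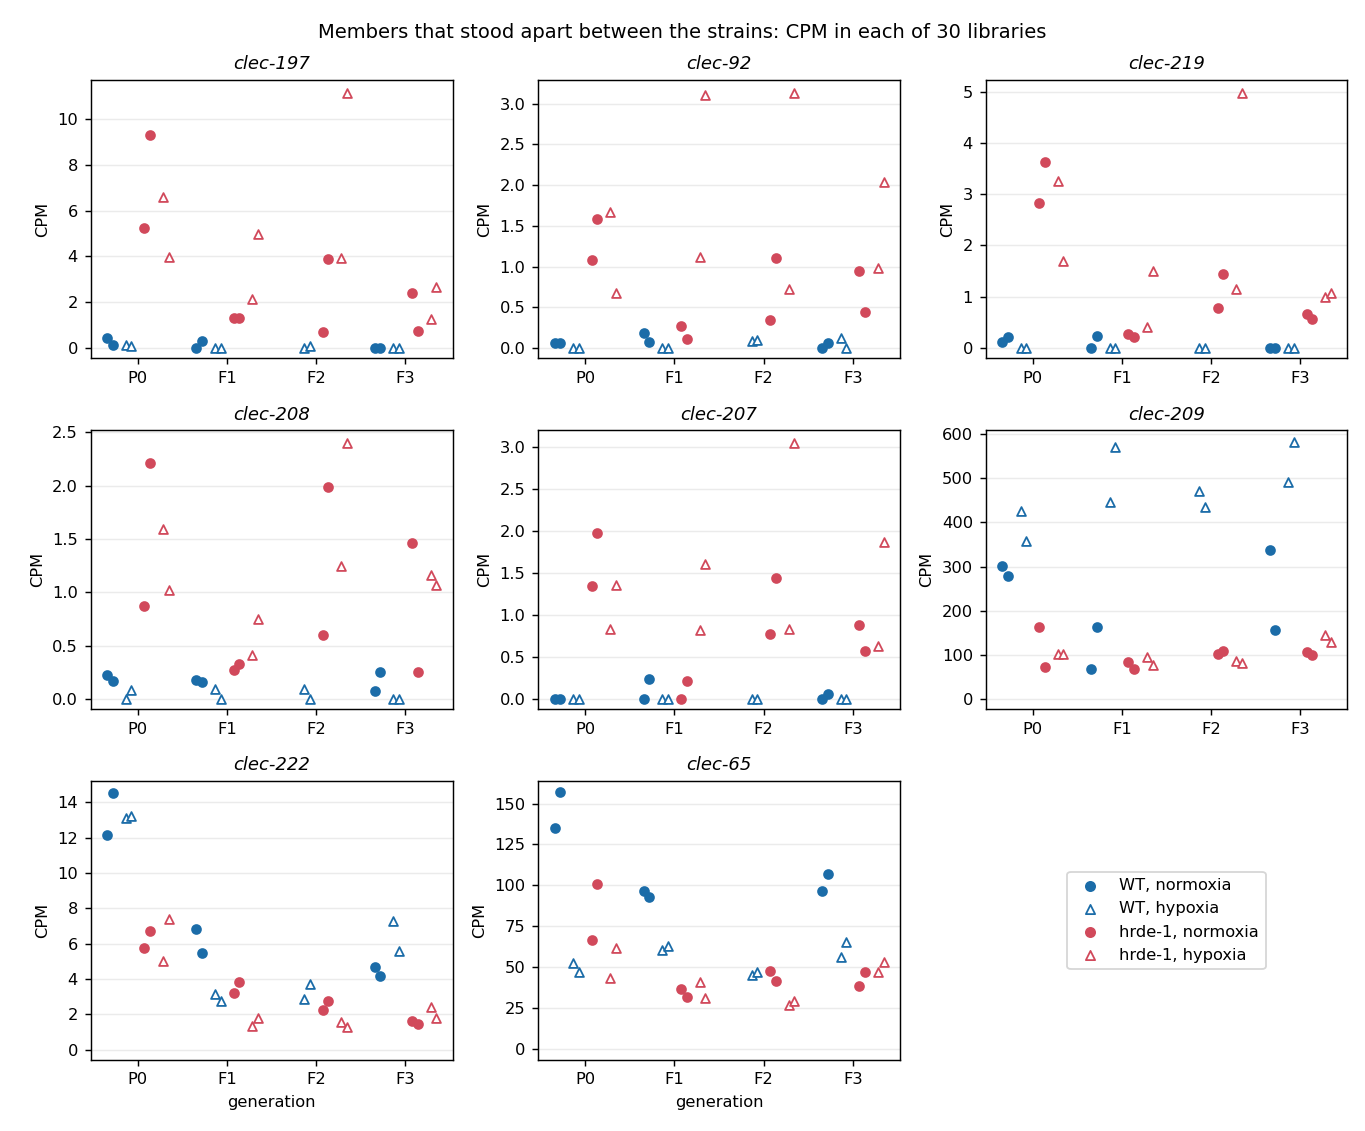
CPM per library for clec-197, clec-92, clec-219, clec-208, clec-207, clec-209, clec-222 and clec-65 by generation, in blue for WT and red for hrde-1, with filled circles for normoxia and open triangles for hypoxia. clec-197 and clec-208 show no overlap of the strains, and clec-209 is lower in hrde-1 in most groups.

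The clearest member in the other direction is clec-209, introduced above for its level. Its hypoxia groups read 427 and 358 CPM in P0 WT, 446 and 570.0 in F1, 472 and 436 in F2, and 491 and 583 in F3. The mutant hypoxia groups read 101 and 102, 93.9 and 76.2, 86.7 and 80.8, and 145 and 128 CPM. Every WT hypoxia library lay above every mutant library, whose maximum was 163 CPM. The log2 fold changes in hypoxia were -1.95 ± 0.36 for P0 (adjusted p = 0.00261), -2.58 ± 0.37 for F1 (0.00016), -2.44 ± 0.37 for F2 (0.000265) and -1.98 ± 0.36 for F3 (0.00185). In normoxia clec-209 fell in P0 (-1.30 ± 0.35, adjusted p = 0.012), F2 (-2.10 ± 0.35, 0.000882) and F3 (-1.27 ± 0.35, 0.0263) but was not called in F1, where WT stood at 66.5 and 162 and the mutants at 82.3 and 67.9 CPM. The calls of F1 and F2 hypoxia and of F2 normoxia held without any 1 library. Those of P0 and F3 hypoxia reached an adjusted p of 0.0528 and 0.0506 without the first and the second hrde-1 library. In P0 normoxia the call was lost without either WT library (0.0617 and 0.0699) or the second hrde-1 library (0.132), and in F3 normoxia without the first WT (0.38) or either hrde-1 library (0.0672 and 0.069), as in the compared groups alone (0.165 and 0.347). Reads of clec-209 are in part divided with another gene, as given above.

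clec-62, clec-63 and clec-65 lie in a stretch of 5 members on chromosome II, from 12893062 to 12906644. clec-65 was called lower in the mutants in 5 of 8 comparisons. In F1 normoxia it read 37.0 and 32.3 CPM in hrde-1 and 96.6 and 92.9 in WT (-1.45 ± 0.19, adjusted p = 2.3e-05), clec-62 read 9.30 and 7.39 against 24.3 and 23.6 CPM (-1.52 ± 0.31, adjusted p = 0.00141), and clec-63 read 348 and 337 against 1237 and 1361 CPM (-1.92 ± 0.28, adjusted p = 6.99e-05). In that comparison, where 22.2% of all genes were lower, the strains were apart in all 3 members, and the calls held without any 1 library. Over the 8 comparisons clec-62 was called lower in 3 and clec-63 in 2, and clec-64 and clec-66 of the same stretch in 0. Means of clec-63 in hrde-1 and WT were 595 and 618 CPM in F2 normoxia (WT from the remainder) and 869 and 823 CPM in F3 hypoxia. clec-222 was called lower in 6 of 8 comparisons. In F3 hypoxia it read 2.42 and 1.77 against 7.29 and 5.59 CPM (-1.62 ± 0.29, adjusted p = 0.00171, or 0.0526 without the second hrde-1 library), and in F3 normoxia 1.604 and 1.46 against 4.68 and 4.15 CPM (-1.52 ± 0.29, adjusted p = 0.00186, or 0.426 in the compared groups alone). Over the family, 6 members (4.58%) were called lower in at least 3 of 8 comparisons, beside 2.21% of all genes.

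By comparison, hrde-1 normoxia differed from WT normoxia in 27 members higher and 9 lower in P0 (20.6% and 6.87%, beside 15.2% and 7.32% of all genes). In F1 it was 17 and 31 (13% and 23.7%, beside 12.3% and 22.2%), in F2 10 and 1 (7.63% and 0.763%, beside 2.9% and 1.61%, or 4.51% together) and in F3 11 and 13 (8.4% and 9.92%, beside 4.45% and 4.42%, or 8.86% together). In hypoxia the counts were 5 and 3 in P0 (3.82% and 2.29%, beside 1.5% and 0.637%), 2 and 3 in F1 (1.53% and 2.29%, beside 1.14% and 0.843%, or 1.98% together), 15 and 3 in F2 (11.5% and 2.29%, beside 4.99% and 1.44%) and 11 and 6 in F3 (8.4% and 4.58%, beside 5.18% and 5.6%). Part of these counts follows from the choice of members. Of the members called higher in hrde-1, 13 of 27 in P0, 1 of 17 in F1, 5 of 10 in F2 and 3 of 11 in F3 normoxia had under 100 counts in WT, as had 5 of 5, 2 of 2, 11 of 15 and 7 of 11 in hypoxia. Of those called lower in normoxia, 1 of 9 in P0, 3 of 31 in F1 and 2 of 13 in F3 had under 100 counts in hrde-1. The shares are therefore descriptions. Tissue markers moved in the same comparisons. In P0 normoxia 18 of 20 oocyte and eggshell markers and 18 of 25 sperm markers were higher in hrde-1. In F1 normoxia 15 of 20 oocyte and eggshell markers were higher, while 20 of 25 sperm, 9 of 15 hypodermis, 9 of 15 muscle and 8 of 18 neuron markers were lower, and of the others 1 sperm and 1 hypodermis marker were higher. Sperm markers were higher in 6 of 25 in F2 normoxia and in 3, 16 and 8 of 25 in P0, F2 and F3 hypoxia. The part of these tissues in the members' values was not tested. Member medians in normoxia were 0.14, -0.61, 0.33 and -0.23 from P0 to F3, and those of all genes -0.06, -0.24, 0.07 and -0.06. In F1 normoxia clec-82 was lower in the mutants, at 0.620 and 0.326 CPM against the WT values above (-4.72 ± 0.58, adjusted p = 9.24e-06). clec-60, clec-70 and clec-76 had under 100 counts in all mutant libraries and are members only through WT, so their low F1 normoxia levels in the mutants, at most 0.266 CPM, are descriptions. clec-186, at 43.6 and 43.3 against 6.90 and 7.62 CPM, changed by 2.58 ± 0.47 (adjusted p = 0.000554). The calls of clec-82 and clec-186 held without any 1 library, and they share the F1 WT normoxia libraries with the comparison of F1 WT hypoxia above.

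Most of these counts turn on single libraries. The total of called members in P0 normoxia went from 36 to 21, 8, 18 and 49 without the first and second WT and the first and second hrde-1 library, and to 0 in the compared groups alone. In F1 normoxia it went from 48 to 23, 27 and 25 without the first WT, the first and the second hrde-1 library. In F2 normoxia it went from 11 to 1, 1 and 5 without the first and second WT and the first hrde-1 library, to 1 in the compared groups alone and to 18 in DESeq2. In F3 normoxia it went from 24 to 14, 8 and 42 without the first and second WT and the second hrde-1 library, and to 0 in the compared groups alone. In P0 hypoxia it went from 8 to 2, 2, 2 and 5 without each library in that order, to 29 in the compared groups alone and to 13 in DESeq2. In F1 hypoxia it went from 5 to 1, 1 and 2 without the first and second WT and the second hrde-1 library, to 20 in the compared groups alone and to 11 in DESeq2. In F2 hypoxia it went from 18 to 2 without the first WT, the second WT or the second hrde-1 library. In F3 hypoxia it went from 17 to 2, 4, 10 and 1 without each library.

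Differences among generations were tested over 3 strata, WT hypoxia, hrde-1 normoxia and hrde-1 hypoxia, as the mean change of F1, F2 and F3 from P0. Of the 131 members 58 changed (44.3%), beside 35.6% of all genes. Those at least 2-fold higher in each later generation were 10 (7.63%, beside 8.23% of all genes), and those at least 2-fold lower 16 (12.2%, beside 1.92%). Of the 16, 8 had under 100 counts in F1 to F3, and of the 10, 4 had under 100 counts in P0. These 12 reached the limit only through the generations where they are high, so the shares are descriptions. The smallest p among those lower was that of clec-222. Its libraries of these strata lay at 5.002 to 13.2 CPM in P0 and at 1.29 to 7.29 CPM later, with log2 changes from P0 of -1.66, -1.82 and -1.54 for the later generations in order (adjusted p = 2.88e-07). clec-17 lay at 0.340 to 14.9 CPM in P0 and at 0 to 1.46 CPM later. clec-42, which acts against Bacillus thuringiensis, lay at 0.739 to 2.55 CPM in P0 and at 0 to 0.887 CPM later. With 86 and 80 counts in F1 to F3, clec-17 and clec-42 are among the 8 and are given with no test. For clec-17 the ranges of P0 and later libraries overlap, as for clec-222 and clec-42. In the chromosome IV stretch of 14 genes, the lower set held clec-71, clec-72, clec-74 and clec-78. The higher set held clec-73 and clec-79, so neighbours moved in opposite directions. clec-75 and clec-174 of that stretch were also in the lower set. With 32 and 31 counts in F1 to F3 they are among the 8 and are given with no test.

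Among the higher members, clec-123 lay at 1.82 to 3.64 CPM in P0 and 2.18 to 24.3 CPM later (2.13, 1.73 and 2.59, adjusted p = 2.52e-05). clec-73 lay at 2.02 to 5.91 CPM in P0 and 1.52 to 34.1 CPM later (1.72, 1.77 and 2.45, adjusted p = 0.000292). The chromosome III neighbours clec-151, clec-152 and clec-153 were in the same set, clec-152 and clec-153 with only 21 and 61 counts in P0 and therefore with no test, and clec-151 with an adjusted p of 0.0209. The calls of clec-123 and clec-73 held without any 1 library. That of clec-151 was lost without the first or second P0 WT hypoxia, the first P0 hrde-1 normoxia or the second P0 hrde-1 hypoxia library (adjusted p = 0.0595, 0.0593, 0.0521 and 0.0645). Tissue markers moved too. Of 25 sperm markers 23 were higher, with mean sums of 84.2, 163 and 199 CPM in the P0 groups of these strata and 190.5 to 924 CPM in the later ones. Muscle markers were higher in 12 of 15 and lower in 1, and intestine markers higher in 10 of 21 and lower in 3. Their part in the members' values was not tested. In a test of F1 to F3 alone 6 of the 58 members were called.

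Other genes of innate immunity moved in both directions. A list of 16 regulators held genes of the p38 pathway and others that act in immunity outside it, such as kgb-1 and bar-1. Of these 16, 3 were higher and 9 lower in P0 WT hypoxia (median -0.85, all genes -0.14), beside 19.1% and 22.8% of all genes. tir-1, an adaptor upstream of the kinases, changed by -1.51 ± 0.29 (adjusted p = 0.000576) and pmk-1, the p38 kinase, by -1.12 ± 0.24 (adjusted p = 0.00116). In F1 WT, where 5.34% of all genes were higher and 8.54% lower, none of the 16 was higher and 6 were lower. Among the 6 were tir-1 (-1.45 ± 0.30, adjusted p = 0.00242) and the kinase gene nsy-1 (-1.22 ± 0.23, adjusted p = 0.00118). There clec-67 and clec-85 were called higher, but as given above those calls were lost without single libraries. Of 41 tested immune effectors outside the family, 12 were higher and 5 lower in F1 WT hypoxia (median 0.35). The effector T24B8.5 changed by 6.60 ± 0.61 (adjusted p = 6.6e-07) and the lysozyme gene lys-2 by 4.84 ± 0.54 (adjusted p = 7.82e-06), while the saposin-like gene spp-8 changed by -2.29 ± 0.28 (adjusted p = 2.3e-05). For the regulators and effectors named here, dependence on single libraries was not examined. In P0 WT hypoxia 4 effectors were higher and 13 lower, and in F3 WT hypoxia 7 were higher and 1 lower, beside 3.05% and 3.57% of all genes. In the F1 interaction 2 effectors were more positive and 9 more negative, beside 8.72% and 3.92% of all genes. Of the 16 regulators 6 were more positive and 0 more negative.

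Members with a known role that were not called between WT hypoxia and normoxia in any generation include clec-52 and clec-71, both induced by Staphylococcus aureus. clec-52 lay at 0.269 to 3.91 CPM in WT and 2.21 to 6.31 CPM in the mutants, and clec-71 at 0.0698 to 1.90 and 0 to 1.53 CPM. clec-52 was called higher in the mutants in F1 normoxia, at 2.75 and 2.82 against 0.269 and 1.40 CPM (1.70 ± 0.58, adjusted p = 0.03). That call was lost without the first WT library (adjusted p = 0.246) or either hrde-1 library (0.0944 and 0.0974). clec-38, whose product acts in axon guidance, and clec-39, which binds Serratia marcescens, had under 100 counts in all and are not members.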

How the data were processed

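RNA-seq of whole worms gave 32 columns of gene-level values. The deposited values are estimated counts made by the authors, and per the submitters' processing notes the tools included RSEM, featureCounts, Bowtie2, edgeR and cutadapt 2.5, with no role or order given. Outside the F2 WT normoxia columns at least 97.8% of values were whole. Aligner settings, genome build, strand and any use of molecular identifiers were not given in the sources used. Estimated counts were rounded, since the planned test takes whole counts. The symbol is the latter part of each identifier, and 46817 identifiers (99.8%) matched the Ensembl WBcel235 annotation.

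Genes kept by filterByExpr were tested with edgeR 4.0.16 (R 4.3.3), quasi-likelihood with TMM scaling and all groups sharing the dispersion, and p-values were adjusted by Benjamini and Hochberg over all 15536 genes (15545 with the remainder), two-sided, with 0.05 as the threshold. CPM uses TMM-scaled library sizes. Errors after ± of fold changes are standard errors. A ratio of pooled counts carries a counting interval, which covers counting error only, and is given where a group held few counts. The fit used 30 libraries, and comparisons with F2 WT normoxia used the remainder in a separate fit of 32. The code was tested on simulated data.

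Named were members with a known role, the 12 highest per kb, up to 8 called members per direction and comparison without overlap (the higher group at 1 CPM or more), members at the limit, and chromosome neighbours. From other lists up to 4 called genes per direction were eligible. Members and lists were chosen with earlier results of these data known, and the male markers after the data were seen. Alternatives were DESeq2 1.42.0, its size factors, other filters, the compared groups alone, the replicate block, the columns as deposited, generations F1 to F3 alone, and leaving out each library. No sequence is shown.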

Additional observations from a re-analysis of the deposited data

Results flagged for a closer look

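For 22 members the hypoxia effect of F1 differed between strains by the interaction test in edgeR, each with an adjusted p under 0.05. Markers of sperm, muscle and neurons were called in that test too, as given above. Differences are the log2 effect in hrde-1 minus that in WT. The more negative ones were clec-41 with -2.31, clec-49 with -1.39, clec-50 with -2.22, clec-51 with -1.502, clec-67 with -2.14, clec-150 with -1.48, clec-173 with -2.80, clec-186 with -2.37, clec-187 with -1.56, clec-209 with -1.97 and clec-210 with -4.76. The more positive ones were clec-54 with 1.75, clec-60 with 8.36, clec-63 with 1.38, clec-73 with 2.81, clec-82 with 4.27, clec-83 with 0.99, clec-84 with 1.09, clec-92 with 7.17, clec-123 with 2.20, clec-152 with 3.96 and clec-227 with 3.40. The value of clec-92 depends on the prior count, since its F1 WT hypoxia libraries were at 0. clec-92 had 10 counts in WT and clec-60 had 66 in hrde-1. Each is a member only through the other strain, so their differences are descriptions, with no test. In F3 the differing members were clec-7 with 3.79, clec-82 with 3.34 and clec-190 with -3.75.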

How the results depend on the processing

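With 2 libraries a group, most counts of called members moved when 1 library was left out. Their ranges were 21 to 27 for hypoxia in P0 WT, 14 to 25 in F1 WT, 1 to 13 in F3 WT, 2 to 23 in P0 hrde-1, 0 to 2 in F1 hrde-1 and 0 to 22 in F3 hrde-1. Between strains they were 8 to 49 in P0, 23 to 36 in F1, 1 to 16 in F2 and 8 to 42 in F3 normoxia, and 2 to 5, 1 to 5, 2 to 19 and 1 to 10 in hypoxia. For the difference of the hypoxia effect they were 0 to 8 in P0, 3 to 12 in F1 and 0 to 34 in F3, and among generations 39 to 75.

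Fitting the compared groups alone gave 58 called members for P0 WT, 46 for F1 WT, 33 for F3 WT, 0 for P0 hrde-1 and 38 for F1 hrde-1. Between strains it gave 0, 1 and 0 for P0, F2 and F3 normoxia and 29 and 20 for P0 and F1 hypoxia, and for the effect difference 50 in F1 and 0 in F3. DESeq2 gave 14 for F1 hrde-1, 18 for F2 normoxia, 13 and 11 for P0 and F1 hypoxia between strains, and 3 and 6 for the effect difference of P0 and F3. A filter of 5 CPM gave 21 for P0 normoxia, 4, 8 and 11 for P0, F2 and F3 hypoxia and 35 among generations. No filter gave 9 for F1 hypoxia between strains and 1 for the P0 effect difference. The columns as deposited gave 14 for F2 WT and 1 for the P0 effect difference, and turned clec-152 in F2 normoxia between strains to -0.0425 (adjusted p = 0.985 in edgeR). F1 to F3 alone, chosen after seeing the data, gave 6. The causes were not tested, apart from the smaller numbers of genes or samples that filters and left-out libraries bring.

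Replicate numbers showed little pairing in most comparisons: deviations of same-numbered samples correlated between -0.209 and 0.551 over 14 comparisons, with 3 over 0.1. The 3 were F3 hrde-1 hypoxia against normoxia (0.551) and, between strains, P0 normoxia (0.352) and F3 normoxia (0.130). The main model holds no pairing by replicate number. With the replicate block 1 member was called for the F3 effect difference, and no other count moved by over 1.5 times. Members of low count are limited by depth.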
